A study of Mus musculus with 721 samples.

Results

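The 10 genes described here encode the laminin chains Lama1, Lamb1 and Lamc1, the collagen chains Col4a1, Col4a2 and Col18a1, the nidogens Nid1 and Nid2, the matrix glycoprotein Sparc and the collagen chaperone Serpinh1. They were chosen by symbol as genes of the basement membrane and its assembly, and each symbol has 1 row among the 24483 gene rows of the count table. All 10 passed the filter on low counts when all cell groups were fitted together. The table holds 721 cells of wild-type C57Bl/6Babr mouse embryos, with no treatment, from 37 labelled embryos collected at E3.5 (10 embryos), E4.5 (5), E5.5 (9) and E6.5 (13). At E3.5, 9 cells titled P11.P6.P10 carry no embryo number and were taken as 1 embryo, which the labels do not state. The paper gives a lower total of embryos. Of the E6.5 embryos 2 are titled E6.75, and 2 that have no plate name carry numbers also used on plate P1 and may be the same animals, which would leave 11 at E6.5 and 35 in all. Trophectoderm was removed by immunosurgery at E3.5 and E4.5, the extra-embryonic ectoderm was cut away and the visceral endoderm (VE) parted from the epiblast at E5.5, and the embryonic part of early streak embryos was dissociated at E6.5, so the share of a cell type among the cells is also set by the dissection. Each cell is its own library, made by Smart-seq2 after RNA and DNA had been separated (G&T-seq), and its values are raw read counts per gene.

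A basement membrane is a thin sheet of extracellular matrix under epithelial cells. Laminin is a trimer of an alpha, a beta and a gamma chain that polymerises on the cell surface, collagen IV is a second network built from chains such as Col4a1 and Col4a2, and nidogens link both. The primitive endoderm (PrE) of the implanting embryo forms an epithelium on the surface of the epiblast, lays down such a sheet between them, and later gives rise to the VE and to the parietal endoderm, whose thick Reichert's membrane is a standard source of laminin-111, the trimer of Lama1, Lamb1 and Lamc1.

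Cells were placed in classes by clustering on all genes other than the 10 and 72 further matrix genes, and the clusters were named from endoderm, epiblast and primitive streak markers. This gave 99 inner cell mass (ICM) cells at E3.5, 82 PrE-like and 23 epiblast-like cells at E4.5, 8 VE-like and 259 epiblast-like cells at E5.5, and 39 VE-like and 25 streak-like cells at E6.5, with 4 E6.5 cells in no class. The E6.5 epiblast-like cells formed a cluster of 101 cells from embryos titled by plate P1 to P3 and a cluster of 81 cells from embryos without a plate name, 73 of them titled E6.75, which were kept apart. For each embryo and class with 3 or more cells the counts were added up, which gave 49 sums of 3 to 54 cells and 1165967 to 49484352 counts, and levels are CPM, counts scaled to 1000000 counts of the normalised library size of a sum. Summed endoderm markers lay between 9821 and 20980 CPM in the PrE-like sums, between 204.7 and 523.8 CPM in the E4.5 epiblast-like sums and between 19590 and 52790 CPM in the E6.5 VE-like sums. Of the 24 markers, 22 had counts in the PrE-like sums, 21 in the E4.5 epiblast-like sums and 20 in the ICM sums, so their detection does not part the classes. The clusters were named from these markers, so the marker levels are no independent check of the names.

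Serpinh1 and Lamb1 were higher in PrE-like cells at E4.5, while Nid1 did not pass and Col18a1 was lower there. The promoters of these 4 members are printed because they have at least 100 bases in a row outside annotated exons, and not for their levels. They come from RefSeq promoter windows of GRCm38.p6, matched by symbol for 7 of the 10 genes (Lama1, Lamc1 and Nid2 had none), and only bases upstream of every annotated exon are shown, read 5′ to 3′ on the gene's strand. Capitals mark GC boxes (GGGCGG or CCGCCC) and CCAAT boxes (CCAAT or ATTGG), searched on both strands. The windows of Col4a1, Col4a2, Sparc and a second start of Col18a1 have fewer than 100 such bases in a row and are not printed. Col4a1 and Col4a2 lie head to head on chromosome 8, and their annotated first exons overlap by 22 bases.
Serpinh1, chr7:99353240-99353489, minus strand: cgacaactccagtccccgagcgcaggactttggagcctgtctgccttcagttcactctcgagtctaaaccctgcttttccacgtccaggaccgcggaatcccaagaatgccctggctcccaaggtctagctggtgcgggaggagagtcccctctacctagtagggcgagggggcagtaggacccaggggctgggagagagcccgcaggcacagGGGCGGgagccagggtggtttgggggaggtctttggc
Lamb1, chr12:31265043-31265233, plus strand: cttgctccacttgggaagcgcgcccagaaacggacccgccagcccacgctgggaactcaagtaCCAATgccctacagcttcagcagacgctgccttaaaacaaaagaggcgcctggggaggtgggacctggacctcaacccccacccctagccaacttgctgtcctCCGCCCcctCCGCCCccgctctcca
Nid1, chr13:13437352-13437550, plus strand: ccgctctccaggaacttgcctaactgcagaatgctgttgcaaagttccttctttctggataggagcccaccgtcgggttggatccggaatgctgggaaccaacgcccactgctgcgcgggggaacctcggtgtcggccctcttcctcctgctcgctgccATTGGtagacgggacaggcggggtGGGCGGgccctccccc
Col18a1, chr10:77166549-77166780, minus strand: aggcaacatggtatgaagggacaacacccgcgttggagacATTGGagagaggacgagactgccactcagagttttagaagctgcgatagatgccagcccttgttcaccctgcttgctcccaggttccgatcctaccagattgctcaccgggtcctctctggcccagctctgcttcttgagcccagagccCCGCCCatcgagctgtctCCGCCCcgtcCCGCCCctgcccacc
The printed stretch of Col18a1 holds 3 GC boxes, that of Lamb1 2, and those of Serpinh1 and Nid1 1 each, and a CCAAT box is present in all of these but Serpinh1. In the windows not printed, Col4a1 has 1 GC box and Col4a2 has 3, with 1 CCAAT box each, and Sparc and the second start of Col18a1 have 0 of either. Over all 32851 promoter windows of 300 bases, 35.7% hold GGGCGG and 37.4% hold CCAAT in either orientation. GATAA, the core of a GATA factor site (TTATC on the other strand), is in none of the 8 windows of the 7 genes, and 25.4% of all windows hold it. These matches describe letters and not bound sites.

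Levels of 7 members were highest in the E4.5 PrE-like cells and those of Col18a1 were highest in the E5.5 epiblast-like cells. The summed level of the 10 genes was 898 ± 455 CPM (SD, n = 10 embryos) at E3.5, 11410 ± 1298 CPM (n = 5) in PrE-like cells, 932 ± 146 CPM (n = 5) in E4.5 epiblast-like cells and 570.5 ± 75.4 CPM (n = 8) in E5.5 epiblast-like cells. At E6.5 it was 1280 ± 744 CPM (n = 5) in the VE-like and 408 ± 199 CPM (n = 8) in the epiblast-like cells of embryos with a plate name. In the PrE-like cells the 10 genes thus took 1.14% of the normalised counts. Per kilobase of exon, a scale that allows genes to be set beside each other, Serpinh1 (1117 ± 253 CPM per kb) and Sparc (801 ± 105) led in PrE-like cells, and Lamb1 (170 ± 27), Lamc1 (164 ± 72), Col4a1 (116 ± 26), Lama1 (100.3 ± 31.6) and Col4a2 (92.5 ± 22.6) followed, each differing from its neighbour in this order by less than the larger of their SDs. Nid2, Nid1 and Col18a1 were at 13, 11.6 and 1.33 CPM per kb there.

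**Figure D1:**
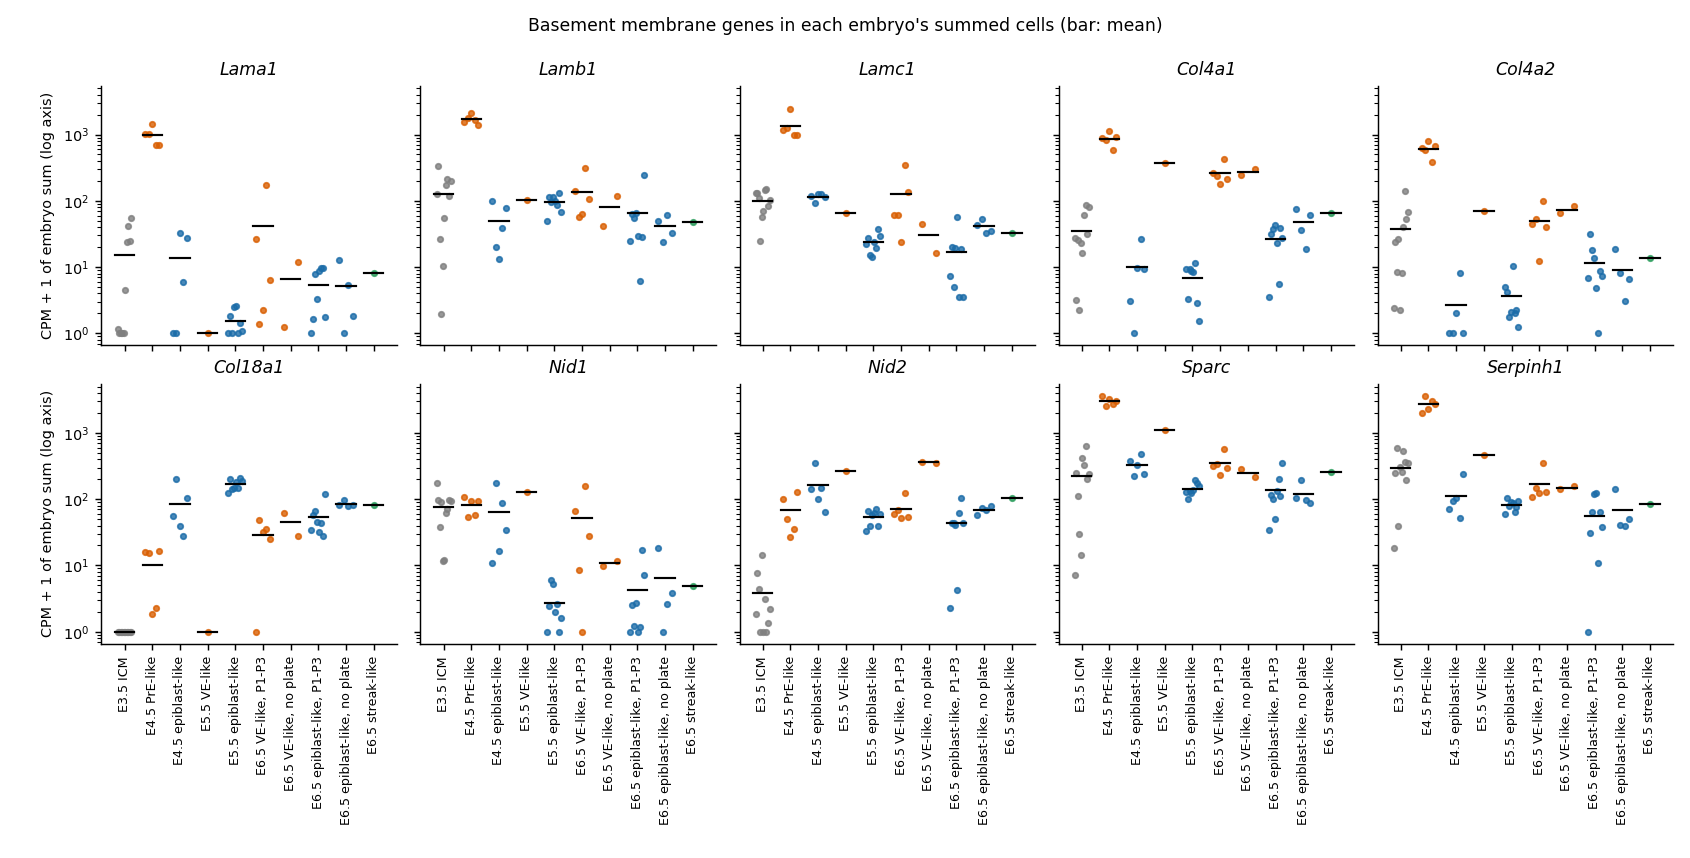
Level of each of the 10 genes (CPM + 1, log axis) in every embryo sum, by class and stage; each point is 1 embryo, grey for E3.5 ICM, orange for endoderm, blue for epiblast and green for streak, and the bar is the mean. The 5 PrE-like points of Lama1 sit between 699 and 1448 CPM, above all points of the other groups, while those of Col18a1 sit between 0.859 and 15.5 CPM.

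The laminin chains separated PrE-like from epiblast-like cells at E4.5 in every embryo. Lama1 (GRCm38, chr17:67697259-67822647), the alpha chain of laminin-111, was at 1001, 1004, 1448, 705 and 699 CPM in the PrE-like sums of embryos 1 to 5, and at 0, 0, 31.8, 5.00 and 26.8 CPM in their epiblast-like sums. Lamb1 (chr12:31265234-31329644) was at 1543, 1785, 2086, 1629 and 1391 CPM against 99.4, 19.04, 12.2, 37.4 and 75.8 CPM. Lamc1 (chr1:153218922-153332786), the gamma chain, was at 1182, 1261, 2396, 969 and 971 CPM against 116, 91.3, 125, 125 and 112 CPM. For all 3 chains the lowest PrE-like sum lay above the highest epiblast-like sum, and Lamc1 was the chain with the most even level among the epiblast-like sums. The log2 difference was 6.22 (SE 1.60) for Lama1, 5.11 (SE 0.84) for Lamb1 and 3.57 (SE 0.61) for Lamc1, with adjusted p-values of 0.0128, 5.65e-05 and 8.72e-05 in edgeR's quasi-likelihood test. The call for Lama1, whose epiblast-like level rests on few reads, did not pass when embryo 1, 2 or 4 was left out (adjusted p 0.0555 to 0.0563, log2 difference 5.90 to 6.74 over all 5 left-out fits), nor with classes from a marker score (3.46, adjusted p 0.117).

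The collagen IV pair showed the largest contrasts, and Col18a1 the opposite one. Col4a1 (chr8:11198423-11312826) was at 890, 823, 1112, 577 and 924 CPM in the PrE-like sums and at 2.12, 0, 8.81, 25.7 and 8.35 CPM in the epiblast-like sums. Col4a2 (chr8:11312805-11449287) was at 634, 575, 796, 387 and 669 CPM against 0, 0, 1.02, 7.18 and 0 CPM. Both pairs of groups were far apart, at log2 differences of 6.52 (SE 0.90, adjusted p 3.08e-06) and 8.35 (SE 1.28, adjusted p 1.77e-05). Both were called in all 10 alternatives and all 5 fits with an embryo left out, but the size depended on the setting, from 3.13 for Col4a1 and 4.02 for Col4a2 in marker score classes to 7.47 and 11.17 without embryo 4, whose epiblast-like sum had the highest level of both. Col18a1 (chr10:77052178-77166548), the chain of collagen XVIII, which carries the endostatin fragment at its end, was at 14.7, 14.2, 0.859, 1.28 and 15.5 CPM in the PrE-like sums and at 54.8, 198, 38.6, 27.0 and 102 CPM in the epiblast-like sums. The groups did not overlap, with PrE-like cells lower by a log2 difference of -3.17 (SE 0.74, adjusted p 0.00671). It did not pass with sums of at least 1 cell (-3.18, adjusted p 0.115). Slc19a1 lies on the opposite strand within the span of Col18a1 and shares 0 exon bases with it.

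The nidogens did not pass the test between the E4.5 classes, while Sparc and Serpinh1 did. Nid1 (chr13:13437551-13512269) was at 53.6 to 106 CPM in the PrE-like and at 9.77 to 173 CPM in the epiblast-like sums (log2 difference 0.35, SE 1.16, adjusted p 0.985), and Nid2 (chr14:19751265-19811787) was at 26.3 to 127 CPM against 63.0 to 349 CPM (-1.25, SE 0.79, adjusted p 0.376). The sums of both genes overlapped between the classes. Sparc (chr11:55394500-55423183), a collagen-binding glycoprotein, was at 3602, 2576, 3204, 2768 and 3028 CPM in the PrE-like sums and at 373, 226, 322, 477 and 236 CPM in the epiblast-like sums. Serpinh1 (chr7:99345376-99353239), the endoplasmic reticulum chaperone of procollagen also called HSP47, was at 2005, 3607, 2309, 2976 and 2741 CPM against 70.1, 92.0, 103, 50.7 and 240.1 CPM. Every PrE-like sum of Sparc and Serpinh1 lay above every epiblast-like sum, at log2 differences of 3.22 (SE 0.63, adjusted p 0.000699) and 4.62 (SE 0.71, adjusted p 1.78e-05). In all, 7 of the 10 genes were higher and 1 lower in PrE-like cells at limits of 0.05 for the adjusted p and of 2 for the log2 difference, where 2.6% of the 17025 genes tested were higher and 1.27% lower, and the median log2 difference was 4.09 over the 10 genes and 0.05 over all genes. Where the classes did not overlap, this held within both plates, since it held over all 5 embryos. The share of all genes without overlap between the E4.5 classes is not given. The epiblast-like sums hold 3 to 6 cells each, fewer than the 9 to 28 of the PrE-like sums.

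Markers of the parietal endoderm, the other cell type known for these genes, summed to 183 to 312 CPM in the PrE-like sums, with Thbd at 0 and 4 of 5 markers detected, and to 3.17 to 85.3 CPM in the epiblast-like sums. Their part in the difference was not tested. Trophoblast markers were lower in the PrE-like sums (64.0 to 153 CPM) than in the epiblast-like sums (178 to 426 CPM), with Cdx2 and Hand1 at 0 in both.

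**Figure D2:**
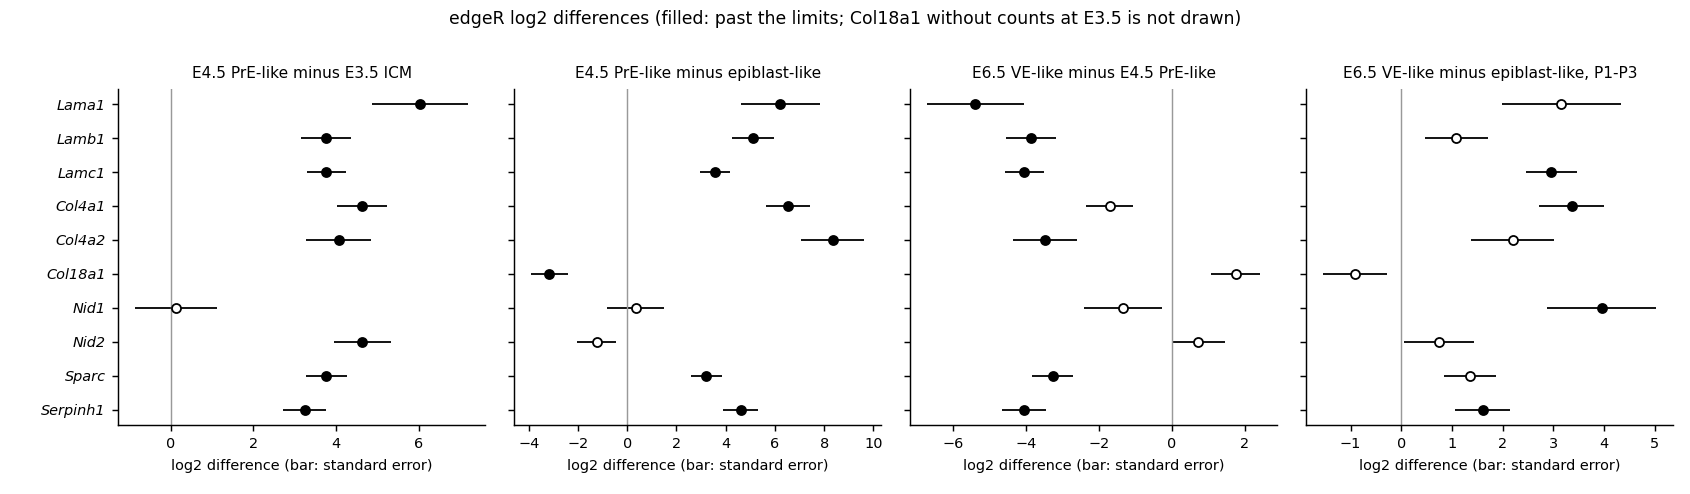
Log2 difference (edgeR, bars are 1 SE) of the 10 genes in 4 comparisons between embryo sums, with filled points past the limits. From E4.5 PrE-like to E6.5 VE-like cells 6 of the 10 points are filled, all below 0, and Col18a1, at 0 counts in every E3.5 sum, is not drawn in the E3.5 panel.

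In single E4.5 cells, Col4a1 and Col18a1 marked different cells. At a limit of 10 CPM, 67 of the 82 PrE-like cells had Col4a1 alone, 2 had Col18a1 alone, 12 had both and 1 had neither, while of the 23 epiblast-like cells 1 had Col4a1 alone, 16 had Col18a1 alone, 5 had both and 1 had neither. Any count of Col4a2 was found in 79 of 82 PrE-like and 3 of 23 epiblast-like cells, and any count of Lama1 in 80 and 8 cells. Any count of Col18a1 was found in 20 of 82 PrE-like cells (24.4%, exact 95% interval 15.6 to 35.1%) and in 21 of 23 epiblast-like cells, at median depths of 754873 and 667151 counts a cell. These intervals cover counting error only.

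**Figure D3:**
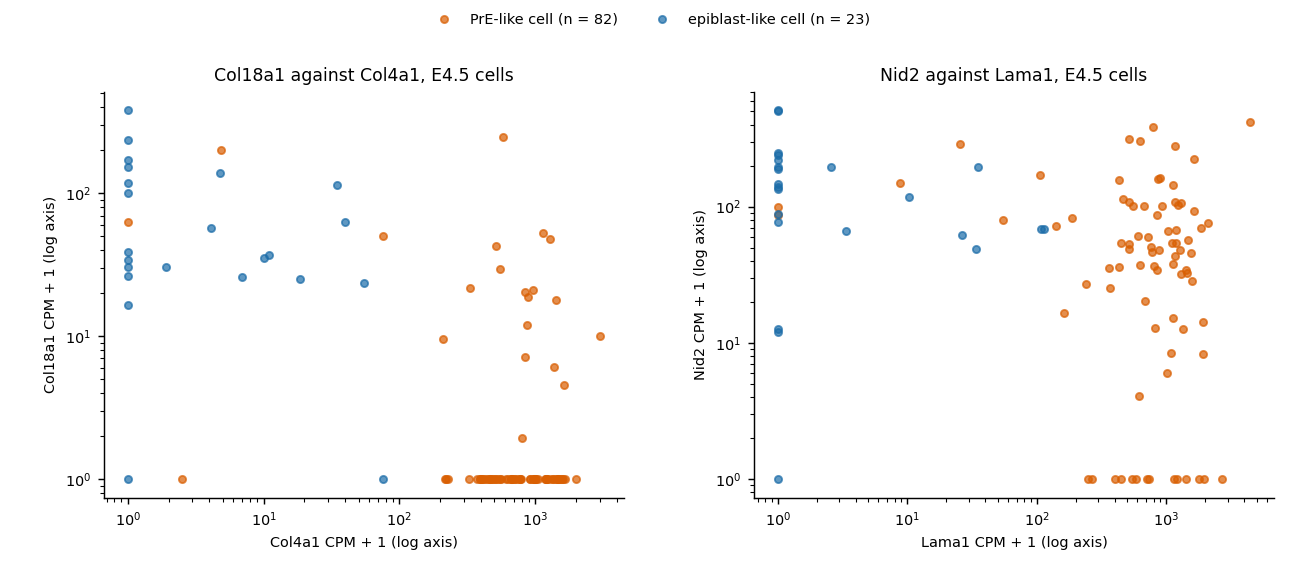
E4.5 cells by Col4a1 and Col18a1 (left) and by Lama1 and Nid2 (right), each axis in CPM + 1 on a log scale, with PrE-like cells in orange and epiblast-like cells in blue. Of the 82 PrE-like cells 67 reach 10 CPM for Col4a1 alone, and of the 23 epiblast-like cells 16 reach it for Col18a1 alone.

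10 of the 82 PrE-like cells were placed with the epiblast by a marker score or by Ward clustering. Their median levels were 316 CPM for Lama1, 458 CPM for Lamb1, 435 CPM for Col4a1, 102 CPM for Col4a2, 18.7 CPM for Col18a1 and 704 CPM for Serpinh1. The 72 cells that all 3 ways of classing called PrE-like had medians of 918, 1816, 858, 676, 0 and 3125 CPM for the same genes. The 23 epiblast-like cells had medians of 0, 20.0, 0, 0, 36.1 and 79.8 CPM, so the medians of the 10 cells lay between those of both other sets for these 6 genes.

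At E3.5 the members fell into genes with reads in most embryos and genes near 0. Over the 10 ICM sums, the lowest, median and highest levels were 0.944, 122 and 330 CPM for Lamb1, 23.6, 106 and 150.2 CPM for Lamc1, and 10.5, 79.5 and 177 CPM for Nid1. Sparc was at 6.08, 221 and 642 CPM and Serpinh1 at 17.6, 276 and 599 CPM. Lama1 was at 0, 1.86 and 54.4 CPM, and 4 of 10 sums had no read of it. Col18a1 had no count in any of the 10 sums or 99 cells, which allows a share of cells with a count of up to 3.66% (exact 95% interval). That interval covers counting error only and treats cells that share embryos as independent. Nid2 was at 0, 1.02 and 13.2 CPM with counts in 9 of 99 cells.

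The E3.5 embryos differed by plate, which was noticed in these levels. The 4 embryos of plate P9, with 11 to 28 cells each, were at 22.5, 40.6, 23.4 and 54.4 CPM for Lama1. The 6 embryos of other plates, with 3 to 9 cells each, were at 0 to 3.54 CPM. Sums of plate P9 held 5732448 to 14908544 counts and those of other plates 2418676 to 5418073. The 4 sums with no read of Lama1 were of 3 or 4 cells. Col4a1 was at 30.5 to 84.4 CPM against 1.26 to 26.9 CPM, and Col4a2 at 39.8 to 138 CPM against 1.23 to 25.5 CPM. For these 3 genes the plates did not overlap, and for the other members with reads they did. The plates cannot be told apart from the embryos they held or from the number of cells per sum.

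From E3.5 to the E4.5 PrE-like cells, 9 of the 10 genes rose at limits of 0.05 for the adjusted p and of 1 for the log2 change, which hold for all later comparisons, where 13.2% of all genes rose and 4.69% fell, and no member fell. The PrE-like sums of these 9 genes lay above all 10 ICM sums, those of Col18a1 at 0.859 CPM or more against ICM sums all at 0. The share of all genes that separated in this way is not given. Lama1 rose by a log2 change of 6.04 (SE 1.17, adjusted p 0.000144), Col4a1 by 4.63 (SE 0.61), Nid2 by 4.63 (SE 0.69), Col4a2 by 4.07 (SE 0.79), Lamc1 by 3.77 (SE 0.47), Sparc by 3.76 (SE 0.49), Lamb1 by 3.76 (SE 0.60) and Serpinh1 by 3.24 (SE 0.52, adjusted p 5.24e-06). Col18a1 was at least 184-fold higher in PrE-like cells, against a floor of 3 counts over the ICM group, but 62 of the 82 PrE-like cells had no count of it and 50.6% of its counts came from the 10 cells that a marker score or Ward clustering placed with the epiblast. When only the ICM and PrE-like sums were fitted, Col18a1 did not pass the filter on low counts, and 8 of the 9 members tested rose. Nid1 did not pass, at 74.0 ± 48.9 CPM in the ICM and 80.5 ± 23.5 CPM in PrE-like cells (log2 change 0.12, SE 0.99, adjusted p 1.0). The same 9 genes were called with only the E3.5 embryos of plate P9 and with only those of the other plates, and the log2 change of Lama1 was then 4.76 and 10.62. The median log2 change was 3.92 over the 10 genes and 0.14 over all genes. Trophoblast markers summed to 157 to 967 CPM in the ICM sums and to 64.0 to 153 CPM in the PrE-like sums, and their part in these changes was not tested.

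From E3.5 to the E4.5 epiblast-like cells, Col18a1 and Nid2 rose and Col4a1 and Col4a2 fell, where 12.7% of all genes rose and 6.47% fell. Col18a1 was at least 1657-fold higher than the floor, and Nid2 rose from 2.79 ± 4.24 to 160.3 ± 110.9 CPM (log2 change 5.88, SE 0.72, adjusted p 2.24e-08), both with every epiblast-like sum above every ICM sum. Col4a2 went from 36.3 ± 42.2 to 1.64 ± 3.13 CPM (-4.28, SE 1.05, adjusted p 0.00235) and Col4a1 from 34.6 ± 29.8 to 8.99 ± 10.1 CPM (-1.89, SE 0.68, adjusted p 0.0407), with overlapping sums. The fall of Col4a1 did not pass against the E3.5 embryos of other plates alone (log2 change -0.77, adjusted p 0.474), and that of Col4a2 did (-2.65, adjusted p 0.0459). It also did not pass without embryo 6, 7 or 9 of E3.5 or embryo 1, 2, 3 or 5 of E4.5 (adjusted p 0.0563 to 0.12), and its sign turned under Ward clustering (0.46, adjusted p 0.732) and in marker score classes (1.58, adjusted p 0.0765), where Col4a2 did not pass either (-1.69, adjusted p 0.194, and 0.16, adjusted p 0.973). Lama1, near equal against all embryos (-0.18), was higher in epiblast-like cells than in the E3.5 embryos of other plates (4.41, adjusted p 0.0211) and at -1.41 (adjusted p 0.488) against those of plate P9. Both comparisons use the same ICM sums.

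From the E4.5 PrE-like to the E6.5 VE-like cells, 6 of the 10 genes fell and none rose, where 10.4% of all genes fell and 2.94% rose. Lamc1 went from 1356 ± 596 CPM to 61.0, 61.1, 23.2, 342 and 133 CPM in the 5 VE-like sums with a plate name and to 44.0 and 15.2 CPM in the 2 without one, which are titled E6.75. Lamb1 was at 137, 55.3, 62.5, 316 and 107 CPM and at 40.7 and 119 CPM there, and Lama1 at 25.7, 0.374, 1.24, 174 and 5.44 CPM and at 0.235 and 11.2 CPM. Embryo 7 of plate P3 was the highest of the 7 for all 3 laminin chains, and still lay under every PrE-like sum. The log2 changes were -4.04 (SE 0.54, adjusted p 5.19e-07) for Lamc1, -3.86 (SE 0.69) for Lamb1 and -5.39 (SE 1.33, adjusted p 0.00456) for Lama1. Serpinh1 changed by -4.06 (SE 0.60, adjusted p 4.15e-06), Sparc by -3.27 (SE 0.55) and Col4a2 by -3.48 (SE 0.88, adjusted p 0.0058).

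Col4a1 kept a level well above that of the epiblast in the VE-like cells. It was at 264, 235, 179, 433 and 209.9 CPM in the VE-like sums with a plate name and at 247 and 304 CPM in those without, all under the PrE-like sums (577 to 1112 CPM), and its log2 change of -1.69 did not pass (SE 0.65, adjusted p 0.0672). Nid1 (-1.33, adjusted p 0.451), Nid2 (0.74, adjusted p 0.58) and Col18a1 (1.76, adjusted p 0.0697) did not pass either. These results for Col4a1 and Col18a1 depend on the setting: of 9 alternatives, 4 called Col4a1 lower (log2 change -1.57 to -2.33) and 4 called Col18a1 higher (1.83 to 3.35). Nid2 was at 50.2 to 123 CPM in the VE-like sums with a plate name and at 347 and 366 CPM in those titled E6.75. In that difference the later age and the lack of a plate name cannot be told apart. The median log2 change was -3.37 over the 10 genes and -0.31 over all genes.

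At E5.5 only 1 embryo gave a VE-like sum, of the 5 cells picked as VE from embryo 7, so its values carry no test. Lama1 had 0 counts in that sum, where the floor of 3 counts is at 0.447 CPM, and in the 3 further VE-like cells, so PrE-like cells were at least 2174-fold higher than that floor. The partner chains were present, Lamb1 at 100.5 and Lamc1 at 64.6 CPM. Col4a1 stood at 370 CPM, Col4a2 at 70.0, Nid1 at 125, Nid2 at 268, Sparc at 1110 and Serpinh1 at 463 CPM. Across the 5 cells, Col4a1 ran from 86.9 to 701 CPM and Col4a2 from 0 to 181 CPM. Col18a1 had no count in these 5 cells, and among the other 3 it was at 218 CPM in a pair of cells picked together, at 18.0 CPM in a single cell and at 0 in the other.

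Between the VE-like and epiblast-like cells of E6.5 embryos with a plate name, 4 of the 10 genes were higher in the VE and none lower, where 3.98% of all genes were higher and 6.28% lower. Col4a1 was at 179 to 433 CPM in the 5 VE-like sums and at 2.57 to 42.1 CPM (median 28.8) in the 8 epiblast-like sums (log2 difference 3.36, SE 0.64, adjusted p 0.000594). It was the 1 member whose groups did not overlap, and the share of all genes without overlap is not given. Lamc1 was at 124 ± 128 against 15.8 ± 17.7 CPM (2.96, SE 0.50, adjusted p 0.000135), Nid1 at 51.2 ± 64.0 against 3.21 ± 5.54 CPM (3.95, SE 1.08, adjusted p 0.0152) and Serpinh1 at 170 ± 99 against 55.5 ± 45.9 CPM (1.60, SE 0.54, adjusted p 0.0467). Embryo 7 of plate P3 had the highest VE-like sum for these 4 genes. Without it, Lamc1 and Col4a1 were called and Nid1 (2.80, adjusted p 0.0982) and Serpinh1 (1.08, adjusted p 0.208) were not, and Serpinh1 was not called without embryo 3, 4 or 9 either (adjusted p 0.0553 to 0.0611). With sums of at least 5 cells, Nid1 (1.81, adjusted p 0.379) and Serpinh1 (0.98, adjusted p 0.33) did not pass. With embryo as a block, for the embryos that had both classes, Col4a1 (4.08, SE 0.79, adjusted p 0.0312) and Sparc (2.01, SE 0.40, adjusted p 0.0363) were called, and Lamc1 (adjusted p 0.296), Nid1 (0.391) and Serpinh1 (0.399) were not. Lama1 (3.16, adjusted p 0.0669), Col4a2 (2.20, adjusted p 0.0679) and Sparc (1.35, adjusted p 0.0722) did not pass in the fit of all sums. Sparc was called higher in 7 of 11 alternatives (adjusted p 0.0157 to 0.0466), Col4a2 in DESeq2 and with RLE normalization, Lama1 under Ward clustering and Lamb1 in marker score classes. Without embryo 9 of plate P3, Sparc (1.78, adjusted p 0.0213) and Lamb1 (1.89, adjusted p 0.0389) were called and Serpinh1 was not, and Col4a2 was called without embryo 3 of plate P1 (2.73, adjusted p 0.0334). With sums of at least 5 cells Lama1 was at -0.64 and did not pass.

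Markers of maternal decidua and blood summed to 0 to 1051 CPM in the VE-like sums with a plate name, and the epiblast-like sum of embryo 9 of plate P3 (7 cells) stood at 16900 CPM of endoderm markers, the top of a range from 1455 CPM. Their part in these differences was not tested. The difference between endoderm and epiblast was smaller at E6.5 than at E4.5, by the interaction term, for Col4a2 (-6.15, SE 1.41, adjusted p 0.00985), Lamb1 (-4.02, SE 1.01, adjusted p 0.019) and Serpinh1 (-3.01, SE 0.86, adjusted p 0.034). In marker score classes none of the 3 passed (adjusted p 0.431, 0.498 and 0.145), with log2 values of -2.32, -1.19 and -1.91. For Col4a1 it did not pass (-3.16, SE 0.99, adjusted p 0.0548), though it did in DESeq2 (adjusted p 0.0209), with only the groups compared (0.0469), with merged embryos (0.0307) and without embryo 4 of E4.5 (0.038) or embryo 7 of E6.5 (0.0424), and it was at 0.49 in marker score classes. These 3 of 10 genes compare with 3.32% of all genes lower and 0.805% higher in that term. The median of the term was -2.44 over the 10 genes, -2.35 over the 24 endoderm markers and -0.61 over all genes.

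In the epiblast lineage Nid1, Lamc1 and Lama1 fell from E4.5 to E5.5, while Col18a1 stayed among the members with reads in nearly every cell (243 of 259 E5.5 epiblast-like cells had a count). From E4.5 to E5.5, 3 of the 10 genes fell and none rose, where 3.01% of all genes fell and 2.6% rose. Nid1 went from 9.77 to 173 CPM (median 32.7) to 0 to 5.04 CPM (median 1.18) in the 8 E5.5 sums (log2 change -5.16, SE 1.13, adjusted p 0.0029), and 8 of 259 E5.5 epiblast-like cells had a count. Lamc1 went from 91.3 to 125 CPM to 13.1 to 36.1 CPM (-2.33, SE 0.49, adjusted p 0.00178). The sums of both genes did not overlap between the stages. Lama1 was at 0 to 31.8 and at 0 to 1.61 CPM (-4.54, SE 1.26, adjusted p 0.0215), with overlapping sums, and the call did not pass without embryo 3 (adjusted p 0.0825) or embryo 5 (0.0612) of E4.5. Sparc also separated the stages (226 to 477 against 98.6 to 193 CPM) without passing the test (-1.20, adjusted p 0.161). Col18a1 was at 27.0 to 198 CPM at E4.5 and at 122 to 209 CPM (median 165) at E5.5, a difference that did not pass (0.998, adjusted p 0.379).

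From E5.5 to the E6.5 epiblast-like cells of embryos with a plate name, Col4a1 rose and Col18a1 fell, where 6.31% of all genes rose and 7.56% fell. Of 24 endoderm markers 21 also rose, at a median log2 change of 5.23 against -0.08 over all genes. The markers summed to 552.5 to 766.1 CPM in the E5.5 sums and to 1455 to 16900 CPM in these E6.5 sums. Their part in the change of Col4a1 was not tested. Col4a1 went from 0.565 to 10.5 CPM (median 7.50) to 2.57 to 42.1 CPM (2.12, SE 0.58, adjusted p 0.0114), with overlapping sums. Col18a1 went from 122 to 209 CPM to 27.1 to 118 CPM (median 43.8), with no overlap (-1.68, SE 0.55, adjusted p 0.0345), but it did not pass without embryo 2, 3, 4, 6 or 8 of E5.5 or embryo 3, 5, 6, 7 or 8 of E6.5 (adjusted p 0.0513 to 0.0713) or with sums of at least 1 cell (-0.97, adjusted p 0.491). The rise of Col4a1 did not pass in marker score classes (1.55, adjusted p 0.0973). Between E6.5 epiblast-like sums without and with a plate name, edgeR called 0 of the 10 genes, where 0.329% of all genes were higher and 0.581% lower, and DESeq2 also called 0. Lamc1 (40.1 ± 9.4 against 15.8 ± 17.7 CPM) was the 1 member with an unadjusted p under 0.05 in edgeR (log2 difference 1.33, p 0.013, adjusted p 0.232). Of all 17025 genes tested, 2280 were under that limit. The pair of sets differs in plate naming, in the cluster that holds its cells and in age, since 73 of the 81 cells without a plate name are titled E6.75, and these cannot be told apart.

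The streak-like class had 1 embryo with enough cells, so its sum of 24 cells is described without a test. Nid2 was at 104 CPM (exact 95% counting interval 98.96 to 108.6), above all 12 E6.5 epiblast-like sums, whose highest was 103 CPM. Sparc (257 CPM) and Col4a1 (64.1 CPM) lay above 11 of the 12. In the epiblast-like cells of the same embryo, Nid2 was at 72.6, Sparc at 192, Col4a1 at 34.9 and Serpinh1 at 39.8 CPM (82.4 CPM in the streak-like sum). Col18a1 was at 81.9 CPM in the streak-like and 94.5 CPM in the epiblast-like sum, and Lama1 at 7.13 and 0 CPM. All 25 streak-like cells had a count of Col4a1.

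Ratios between partner chains differed between classes for 3 of the 4 pairs tested. The log2 ratio of Lama1 to Lamc1 counts was -5.52 ± 3.54 (n = 10) at E3.5, where the plates stood apart, -0.45 ± 0.18 (n = 5) in PrE-like and -3.63 ± 2.79 (n = 7) in E6.5 VE-like cells. It differed between E3.5 and PrE-like cells by 5.07 (p 0.000666, adjusted p 0.00799, exact two-sided permutation test, Benjamini-Hochberg over 12 comparisons) and between PrE-like and VE-like cells by -3.18 (p 0.0101, adjusted p 0.0303, exact permutation). The 4 E3.5 embryos of plate P9 had a ratio of -1.82 ± 0.71, and the difference to PrE-like cells was 1.37 with these alone (exact permutation p 0.0159, adjusted p 0.0476). It was 7.54 with the 6 embryos of other plates (exact permutation p 0.00433, adjusted p 0.026), whose ratio of -7.99 ± 2.01 is set by the 0.5 added to each count in the 4 sums with no read of Lama1. The log2 ratio of Col4a1 to Col4a2 was 0.51 ± 0.04 in the PrE-like sums, with all 5 between 0.47 and 0.58, and 2.44 ± 0.70 in the 7 VE-like sums, with the lowest at 1.90. That difference of 1.94 had an exact permutation p of 0.00253 (adjusted p 0.0133). The log2 ratio of Nid1 to Nid2 was 5.87 ± 3.08 at E3.5 and 0.46 ± 0.87 in PrE-like cells, a difference of -5.41 (exact permutation p 0.00333, adjusted p 0.0133) that was -6.80 with the embryos of plate P9 (adjusted p 0.0476) and did not pass with those of other plates (-4.48, adjusted p 0.0649), and its further fall to VE-like cells did not pass (-3.84, exact permutation p 0.0278, adjusted p 0.0667). The ratio of Lamb1 to Lamc1 passed in no comparison (0.39 ± 0.36 in PrE-like sums, exact permutation adjusted p 0.236 to 0.711). Ratios are of counts and not of counts per length.

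**Figure D4:**
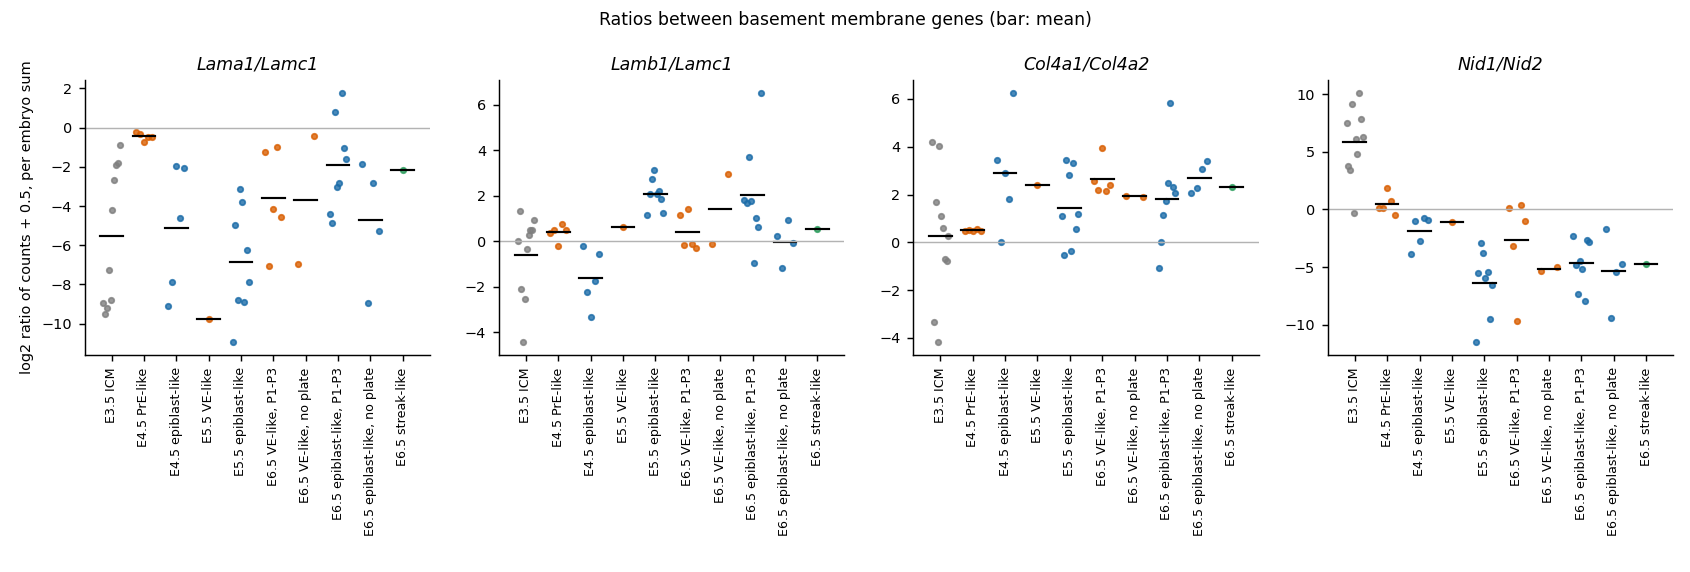
Log2 ratio of summed counts (0.5 added to each) for Lama1/Lamc1, Lamb1/Lamc1, Col4a1/Col4a2 and Nid1/Nid2 in each embryo sum, by class and stage; points are embryos and the bar is the mean. For Col4a1/Col4a2 the 5 PrE-like points lie between 0.47 and 0.58 and the 7 E6.5 VE-like points between 1.90 and 3.94.

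Across the 82 PrE-like cells the laminin chains rose and fell together, with Spearman's rho of 0.76 to 0.81 between each pair, and Col4a1 and Col4a2 had a rho of 0.79. Between laminins and collagen IV chains rho was 0.61 to 0.70. Serpinh1 was less tied to these genes (0.36 to 0.53), and Nid2 was near 0 with them (-0.12 to 0.17). In the 99 ICM cells rho among the laminins, collagen IV chains, Sparc and Serpinh1 was 0.19 to 0.52, with Lama1 and Col4a2 the highest pair, at 0.52 in all cells and 0.40 in the 74 cells of plate P9. In the 39 VE-like cells the laminin pairs were at 0.17 to 0.32. These are descriptions over cells that share embryos, plates and depth. The 82 PrE-like cells include 31 picked as pairs and the 10 that a marker score or Ward clustering placed with the epiblast. Those 10 had medians of 316, 458 and 439.5 CPM for Lama1, Lamb1 and Lamc1, against 918, 1816 and 1303 CPM in the other 72. Their part in the values of rho was not tested.

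At E3.5 Lama1 and Lamb1 went with some markers of the endoderm across the ICM cells and less with others. Over the 99 ICM cells rho was 0.43 between Lama1 and Gata4, 0.41 between Lama1 and Sox17, 0.44 between Lamb1 and Gata4 and 0.42 between Lamb1 and Sox17, the transcription factors of the early endoderm. With Gata6, another endoderm factor, Lama1 was at 0.15 and Lamb1 at 0.18, and with Nanog, a factor of the epiblast, they were at -0.19 and -0.06. Serpinh1 was at 0.45 with Pdgfra, a receptor of PrE cells, and at -0.51 with Nanog. Within the 74 cells of plate P9 the values with Gata4 and Sox17 were 0.43 and 0.45 for Lama1 and 0.48 and 0.49 for Lamb1, and those of Serpinh1 were 0.49 and -0.50. Gata6 was there at 0.29 with Lama1 and 0.32 with Lamb1, and Nanog at -0.28 and -0.31.

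**Figure D5:**
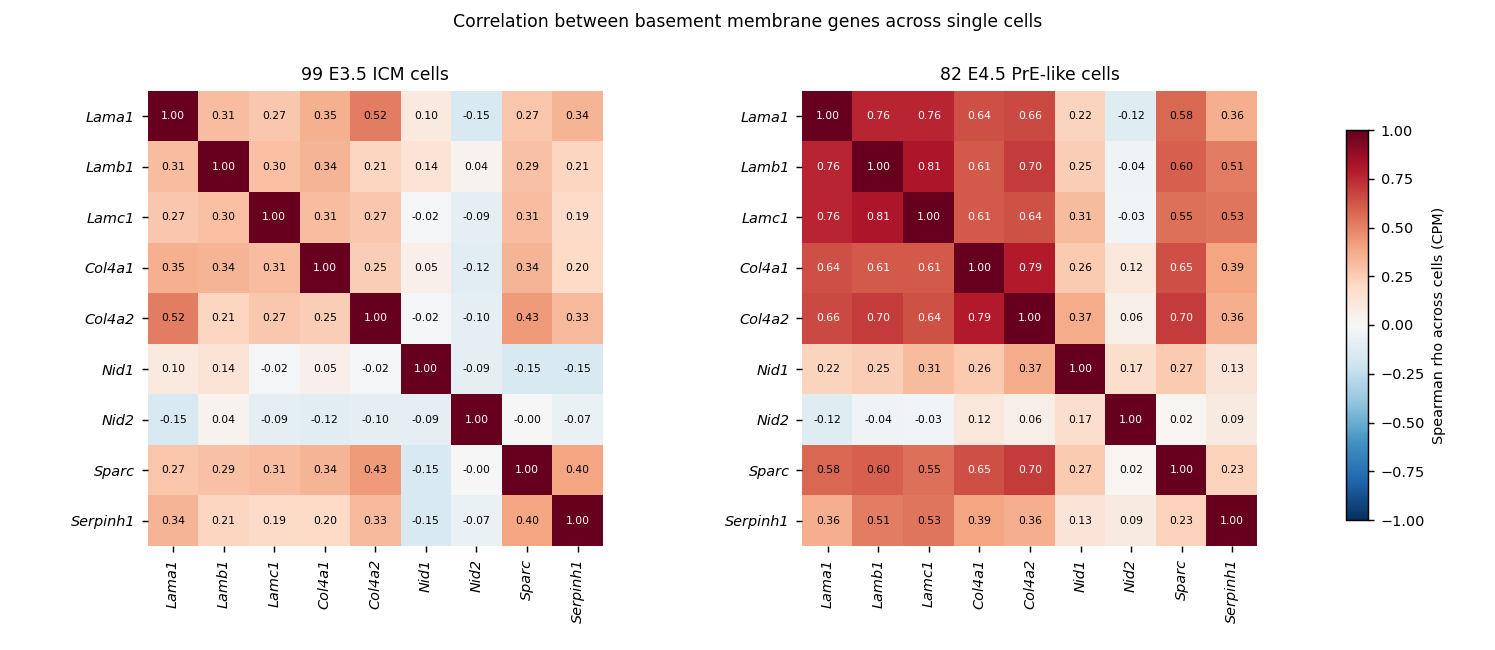
Spearman's rho between 9 members (Col18a1 left out, at 0 in all ICM cells) over 99 ICM cells at E3.5 and over 82 PrE-like cells at E4.5. The laminin pairs lie between 0.76 and 0.81 in PrE-like cells.

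The other genes of the pathway moved by list in different ways. Of 12 collagen-modifying and export genes tested, 4 were higher in PrE-like than in epiblast-like cells at E4.5, where 2.6% of all genes were, and none lower (median log2 difference 1.97), and 5 fell from PrE-like to VE-like cells, where 10.4% of all genes did. P4ha2, a subunit of the enzyme that hydroxylates proline in collagen, was at 136 ± 51 against 0.348 ± 0.778 CPM (log2 difference 8.28, SE 1.65, adjusted p 0.000884). Plod2, a lysyl hydroxylase of collagen, was at 344 ± 95 against 11.2 ± 9.3 CPM (4.93, SE 0.91, adjusted p 0.000312). Of 12 general chaperones of the endoplasmic reticulum, 4 were higher in PrE-like cells, among them Rcn3 (433 ± 34 against 45.8 ± 39.9 CPM, log2 difference 3.23, adjusted p 0.00432) and Ckap4 (3.08, adjusted p 0.00568), and 11 of 12 rose from E3.5 to PrE-like cells, where 13.2% of all genes did. No gene of the 6 other laminin chains, 16 other basement membrane components, 14 crosslinking and remodelling genes or 7 laminin receptors tested passed between the E4.5 classes in edgeR. At an unadjusted p under 0.05 in edgeR there were 2, 5, 3 and 1 of them, where 3619 of all 17025 genes tested were under it. DESeq2 called 0, 3, 2 and 0 of them, where it called 819 of all genes higher and 369 lower.

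Of further basement membrane genes, Lama5 moved against Lama1, while Hspg2 and Agrn rose into PrE-like cells as most members did. Lama5, the alpha chain of laminin-511, was at 185 ± 104 CPM at E3.5, 56.5 ± 28.8 CPM in PrE-like and 133 ± 26 CPM in epiblast-like cells at E4.5, and it fell from E3.5 to PrE-like cells (log2 change -1.71, SE 0.51, adjusted p 0.0135) while Lama1 rose. Between the E4.5 classes it did not pass (-1.23, adjusted p 0.175). Hspg2, the heparan sulfate proteoglycan perlecan, was at 2.22 ± 5.02 CPM at E3.5, 683 ± 259 CPM in PrE-like, 61.1 ± 25.1 CPM in epiblast-like and 14.4 ± 32.2 CPM in E6.5 VE-like cells with a plate name, rose into PrE-like cells (8.11, adjusted p 3.47e-07) and fell after them (-5.52, adjusted p 0.00119). Its difference between the E4.5 classes did not pass (3.48, adjusted p 0.0877). Agrn, agrin, rose from 3.29 ± 5.92 CPM at E3.5 to 150.6 ± 58.3 CPM in PrE-like cells (5.43, adjusted p 1.82e-07) and was at 132 ± 60 CPM in E4.5 epiblast-like cells (log2 difference 0.19, adjusted p 1). Lamb2 had no count at E3.5 and was at 20.7 ± 13.5 CPM in PrE-like and 3.02 ± 3.74 CPM in epiblast-like cells.

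At E6.5, Lamb2 had no count in the 5 VE-like sums with a plate name and was at 1.72 ± 3.03 CPM in the epiblast-like sums (adjusted p 0.019). The laminin receptor chain Itga3 was at 0.609 ± 1.134 against 25.01 ± 32.38 CPM (log2 difference -5.14, SE 1.23, adjusted p 0.00577). It was the 1 receptor of 7 called, where 6.28% of all genes were lower. Fkbp10, a chaperone of collagen, had no count in the VE-like sums and was at 10.8 ± 13 CPM in the epiblast-like sums (adjusted p 0.00555). Ckap4 (2.49, SE 0.60, adjusted p 0.00599), Sdf2l1 (2.07, adjusted p 0.0086) and Glt25d1 (2.20, SE 0.64, adjusted p 0.0206) were higher in the VE. Fbln2 (adjusted p 0.0286), Mmp2 (0.0184) and Htra1 (0.0171) were lower there.

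Over the 49 sums, genes whose levels were among the most like the mean of the 10 members were Nostrin (Pearson's r 0.83), Sox7 (0.83), Bmper (0.81), A530084C06Rik (0.81), Ckap4 (0.80), Aldh1a1 (0.80), Hsd17b6 (0.79), Emx2 (0.78) and Fhdc1 (0.78), computed on log2(CPM + 1). Sox7 is a transcription factor of the endoderm and served as a marker for naming the clusters. Mean levels in PrE-like cells were 343 CPM for Nostrin, 197 CPM for Sox7 and 814 CPM for Ckap4. Set against the mean of the other 9 members, r was 0.82 for Sparc, 0.78 for Lama1, 0.43 for Nid1, 0.18 for Nid2 and -0.32 for Col18a1.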

How the data were processed

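RNA of 721 picked cells was measured by G&T-seq and sequenced as 100 bp paired reads. The authors trimmed the reads (Trim Galore 0.4.3 and HISAT2 2.0.5 in the submitters' processing notes), aligned them to GRCm38, took those of mapping quality 20 or higher and counted them per gene in SeqMonk, and the deposited values are raw counts, without normalization, of 24483 genes on chromosomes 1 to 19. The authors had left out cells with few genes or a high mitochondrial share, trophoblast cells and wells holding 3 cells or none. Cells had 66896 to 3792936 counts (median 692863) and at least 4009 genes. Stage, embryo and plate came from the labels. The embryo is the replicate. Cells picked as pairs were kept, and single cells only were an alternative.

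An SC3-like consensus clustering (8 clusters, 5 at E6.5) was run in Python 3.11.15 with scikit-learn 1.9.0 and scipy 1.17.1, with 82 matrix genes held out, and named from endoderm, epiblast and streak markers. Many of these markers are the study's own picks from these cells. Raw counts were summed per class and embryo (at least 3 cells) and all 49 sums entered 1 fit in edgeR 4.0.16 (R 4.3.3): TMM, its filter on low counts (17025 genes kept), quasi-likelihood test and Benjamini-Hochberg adjustment. A call needed an adjusted p up to 0.05 together with a log2 difference over 1 (over 2 between the E4.5 classes). Where a group had no count of a gene, the fold is a bound against 3 counts over that group. The change to E6.5 VE-like cells weights embryos with and without a plate name by their number. Ratios were log2 of summed counts with 0.5 added to each.

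The members and lists were chosen with earlier results of these data known. Named genes are the 10 members, of each other list the 2 with the largest called log2 difference in the endoderm against epiblast comparison at E4.5 and at E6.5, Lama5, Lamb2, Hspg2 and Agrn in any case, and the 10 genes most like the members' mean, of which 1 is not reported here. The authors state that their batches were separate litters, but the labels do not say which embryos were littermates, so p-values measure the spread between embryos, within and between litters. Endoderm and epiblast-like sums of an embryo are paired because they come from the same animal. The main fit had no term for the embryo and treated them as independent, and embryo as a block was an alternative. The correlation of the paired sums' deviations from the group means over 8428 genes was 0.032 to 0.147 at E4.5 and 0.028 to 0.066 at E6.5. On data simulated for E4.5 PrE-like against epiblast-like cells (15892 genes, 200 changed, 50 of each size), the fit recovered 23, 26, 35 and 40 genes at log2 differences of 2.5, 3.5, 4.5 and 5.5, with 1 false call. Alternatives were DESeq2 1.42.0, relative log expression (RLE) normalization, no filter, Ward clustering of 15 principal components, classes from a marker score, at least 1 or 5 cells per sum, only the groups compared, single cells only, merged E6.5 embryos without those titled E6.75, embryo as a block, each embryo left out and, chosen after the levels were seen, the E3.5 embryos of plate P9 or of other plates only, for ratios too.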

Additional observations from a re-analysis of the deposited data

Results flagged for a closer look

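Of 69 sets of 4 to 10 embryo sums tested, each of 1 gene in 1 class, 18 sets over 9 genes had a wide-gap highest sum. Its gap to the next was wide for the range of the set (Dixon's ratio at the 95% level). That level gives about 1 in 20 such sets for normally distributed values. CPM cannot fall below 0 and all 18 lay at the high end, so the rate may not hold for these levels. Embryo 7 of plate P3 was such a wide-gap sum in the E6.5 VE-like cells for Lama1 (174 CPM, next 25.7), Nid2 (123 CPM, next 68.0) and Serpinh1 (345 CPM, next 148). Embryo 9 of plate P3, whose endoderm markers also stood apart, was the highest E6.5 epiblast-like sum for Lamb1 (245 CPM, next 64.0) and Col18a1 (118 CPM, next 64.8). Among the other epiblast-like sums with a plate name, Lamc1 was at 55.5 CPM in embryo 6 of plate P2 (next 19.2) and Nid1 at 16.0 CPM in embryo 8 of plate P3 (next 6.07).

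In E6.5 epiblast-like sums without a plate name, Nid1 (17.1 CPM, next 2.90) and Serpinh1 (141 CPM, next 48.6) were highest in embryo 1 and Sparc (192 CPM, next 104) in embryo 2. At E4.5, Lamc1 was at 2396 CPM in the PrE-like sum of embryo 3 (next 1261), and in the epiblast-like sums, each of 3 to 6 cells, Col4a2 was at 7.18 CPM in embryo 4 (next 1.02), Nid2 at 349 CPM in embryo 2 (next 145) and Serpinh1 at 240.1 CPM in embryo 5 (next 103). At E3.5, Col4a2 was at 138 CPM in embryo 7 of plate P9 (next 66.4), Nid2 at 13.2 CPM in embryo 4 of plate P8 (next 6.77) and Nid1 at 177 CPM in the embryo without a number (next 97.3). Col4a2 was at 9.50 CPM in embryo 2 of the E5.5 epiblast-like sums (next 3.98). Without embryo 9 of plate P3, Sparc and Lamb1 were called between the E6.5 classes and Serpinh1 was not.

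The contrast of endoderm against epiblast differed between E6.5 and E4.5 by an interaction term in edgeR for Serpinh1 (-3.01, adjusted p 0.034), Col4a2 (-6.15, adjusted p 0.00985) and Lamb1 (-4.02, adjusted p 0.019). Serpinh1 did not pass without embryo 1, 2, 3 or 4 of E4.5 or embryo 5, 6 or 8 of E6.5 (adjusted p 0.0653 to 0.099), and Lamb1 did not pass without embryo 3 or 4 of E4.5 (adjusted p 0.0538 and 0.0507). The 4 E6.5 cells in no class had a summed level of the 10 genes of 304.5 to 1245 CPM, with a median of 717 CPM.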

How the results depend on the processing

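The number of members called, of 10, is given for each comparison as first analysed and over the alternatives. Between the E4.5 classes it was 8, with 7 to 8 over 10 alternatives and 7 to 8 with an embryo left out. From E3.5 to PrE-like cells it was 9, with 8 to 9 and 9. The 8 came with only the groups compared, where 9 members were tested because Col18a1 did not pass the filter on low counts. From E3.5 to epiblast-like cells it was 4, with 2 under Ward clustering, up to 6 elsewhere and 3 to 5 with an embryo left out, with directions turned: Col4a1 was at 0.46 under Ward clustering and 1.58 in classes from the marker score, Col4a2 was at 0.16 in the latter, and Lama1 was at 4.41 with the E3.5 embryos of other plates. From PrE-like to VE-like cells it was 6, with 6 to 8 and 6 to 7, the added calls being Col4a1 lower and Col18a1 higher. Between the E6.5 classes it was 4, with 6 in DESeq2, with RLE normalization and under Ward clustering, 5 with merged embryos, 2 at a minimum of 5 cells, with only the groups compared and with embryo as a replicate block, and 2 to 5 with an embryo left out. The block left the calls at E4.5 at 7 higher and 1 lower.

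From E4.5 to E5.5 epiblast-like cells 3 members were called, with 7 in marker score classes (Col4a2 there at -3.90), 5 with only the groups compared and 2 to 3 with an embryo left out. From E5.5 to E6.5 it was 2, with 3 in DESeq2 and at a minimum of 5 cells, 1 under Ward clustering, in marker score classes, at a minimum of 1 cell and with merged embryos, and 1 to 3 with an embryo left out. Between E6.5 epiblast-like sums without and with a plate name it was 0 under all 9 alternatives and 0 to 1 with an embryo left out (Lamc1 without embryo 6 of plate P2), and merged embryos gave no value there. The interaction term gave 3, with 4 in DESeq2, at a minimum of 5 cells and with merged embryos, 1 under Ward clustering, 1 in marker score classes (Col18a1, higher) and 1 to 4 with an embryo left out. Of the 12 ratio tests 4 passed, with 3 to 5 over alternatives and 3 to 6 with an embryo left out. In all, 18 of the 90 gene and comparison pairs changed sign under an alternative, of which 2, both from E3.5 to epiblast-like cells, had been called. Thinning the cells with at least 200000 counts to that number left 72 of 100 gene and class pairs with counts in at least 50% of cells, as before. The cause of these changes was not tested.

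Counts over all genes moved more. Between the E4.5 classes edgeR called 442 genes higher and 216 lower, DESeq2 819 and 369, and marker score classes 168 and 389. Between the E6.5 classes the counts were 678 and 1069, with the block 137 and 43, and with only the groups compared 221 and 201. DESeq2 split the calls differently from E3.5 to PrE-like cells (1716 higher and 1072 lower, against 2247 and 799), from E3.5 to epiblast-like cells (1730 and 1547, against 2155 and 1101), from PrE-like to VE-like cells (806 and 1657, against 500 and 1771) and from E4.5 to E5.5 (780 and 483, against 443 and 512). RLE normalization moved the median log2 difference of all genes between the E6.5 classes from -0.26 to -0.12, less than any called difference. Epiblast-like sums at E4.5 and VE-like sums hold few cells, which limits the genes near 0.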

Other observations

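The share of cells with a count followed the class more closely for some members than for others. Lama1 was counted in 40 of 99 ICM cells (40.4%), 9 of 259 E5.5 epiblast-like cells (3.47%), 18 of 39 E6.5 VE-like cells (46.2%) and 12 of 25 streak-like cells (48.0%). Col4a1 was counted in 74 of 99 ICM cells, in 63 of 259 E5.5 epiblast-like cells (24.3%), in 61 of 101 and 67 of 81 E6.5 epiblast-like cells with and without a plate name, and in all 39 E6.5 VE-like cells. Nid1 was counted in 79 of 99 ICM cells and in 17 of 101 and 7 of 81 E6.5 epiblast-like cells. Nid2 was counted in 9 of 99 ICM cells (9.09%) and in 22 of 23 E4.5 epiblast-like cells (95.7%).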
